A study of Mus musculus with 217 samples.

Results

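This account follows 10 transcripts of surfactant and of the lung's epithelium, Sftpc, Sftpb, Sftpa1, Sftpd, Abca3, Lamp3, Napsa, Ager, Scgb1a1 and Nkx2-1, out of 52550 genes in the deposited counts. They were taken by name and followed through an LPS course in lung, heart and brain. The samples were RNA pulled down with HA-tagged ribosomes from RiboTag EC mice, in which a tamoxifen-inducible Cre under the Cdh5 promoter switches on the tag in endothelial cells (ECs). All groups were adult C57BL/6J mice of the genotype Cdh5CreERT2/+; Rpl22HA/+ that had received tamoxifen by gavage from 4 to 6 weeks of age. Mice at 6, 24, 48, 72 and 168 hr had received 10 mg/kg LPS intraperitoneally, and mice at 0 hr were the controls without LPS. The pulldown was made from whole-tissue homogenate, so transcripts of cells without the tag could be carried along. The 10 genes were chosen as transcripts of surfactant and lung epithelium. The authors list Sftpc and Ager among the top genes of their lung EC signature. They also report staining of the Ager protein in isolated lung ECs, but not in those of heart or brain. Which cells the reads came from was not tested here. Values are summed sequencing runs of a library, and libraries with under 3% of their reads on genes were left out, which kept 24 lung, 28 heart and 28 brain libraries of 98. The groups at 0, 6, 24, 48, 72 and 168 hr held 4, 4, 2, 6, 4 and 4 lung libraries, 5, 5, 4, 6, 4 and 4 heart libraries, and 5, 5, 4, 6, 4 and 4 brain libraries. The labels do not say which libraries share a mouse, so p-values measure the spread between these libraries, part of which may be technical.

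Surfactant is the film of phospholipid and protein that alveolar type II cells store in lamellar bodies and release onto the alveolar surface, where it lowers surface tension. Sftpb and Sftpc encode its small hydrophobic proteins, while Sftpa1 and Sftpd encode collectins, soluble lectins that bind sugars on microbes. Abca3 carries phospholipid into lamellar bodies, Lamp3 is a lysosome-related membrane protein, and Napsa is an aspartic protease that takes part in processing the surfactant proteins. Ager (RAGE) is a pattern recognition receptor and in lung a marker of alveolar type I cells, Scgb1a1 is the secretoglobin of airway club cells, and Nkx2-1 is the transcription factor of the lung epithelium. Abca3, Napsa and Ager are also made outside the lung epithelium, Napsa and Ager in leukocytes among others.

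On mm10 with the GENCODE M21 annotation, 3 of the surfactant protein genes lie on chromosome 14: Sftpc at chr14:70520949-70524081 on the minus strand, Sftpa1 at chr14:41131782-41136452 on the plus strand and Sftpd at chr14:41172214-41185149 on the minus strand. Sftpb lies at chr6:72304610-72314371 (plus), Abca3 at chr17:24351950-24410201 (plus), Lamp3 at chr16:19653378-19706375 (minus) and Napsa at chr7:44572380-44586862 (plus). Ager lies at chr17:34597862-34600936 (plus), Scgb1a1 at chr19:9083636-9087958 (minus) and Nkx2-1 at chr12:56531958-56536908 (minus). All 10 are protein coding. Whether reads were counted by strand is not given in the sources used here, and opposite-strand genes cover 9.75% of the exonic bases of Abca3 (D330041H03Rik) and 18.9% of those of Napsa (Gm15396), so part of their reads could belong to those genes.

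Promoter sequence, from 250 bases before to 50 bases after the start, was matched in RefSeq (GRCm38.p6) for 6 of the 10 genes. The promoters of Abca3, Sftpa1 and Ager are shown because these genes carry different courses below, and because the Abca3 window holds the most CG pairs of the 6. Capitals mark CG pairs, and each is written 5′ to 3′ on the gene's strand, from chr17:24351773-24352072 (plus) for Abca3, chr14:41131538-41131837 (plus) for Sftpa1 and chr17:34597600-34597899 (plus) for Ager.
Abca3: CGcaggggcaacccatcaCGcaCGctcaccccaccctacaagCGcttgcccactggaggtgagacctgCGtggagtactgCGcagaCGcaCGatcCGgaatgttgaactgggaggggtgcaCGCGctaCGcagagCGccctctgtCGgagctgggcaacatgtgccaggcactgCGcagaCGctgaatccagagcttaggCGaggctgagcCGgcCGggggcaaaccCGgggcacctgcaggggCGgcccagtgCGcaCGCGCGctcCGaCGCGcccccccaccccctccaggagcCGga
Sftpa1: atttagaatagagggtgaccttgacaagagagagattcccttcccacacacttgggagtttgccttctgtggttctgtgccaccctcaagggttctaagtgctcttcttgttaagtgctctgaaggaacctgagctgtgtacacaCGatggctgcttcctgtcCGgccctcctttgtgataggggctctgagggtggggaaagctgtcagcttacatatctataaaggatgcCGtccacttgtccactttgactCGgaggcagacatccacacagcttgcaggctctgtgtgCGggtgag
Ager: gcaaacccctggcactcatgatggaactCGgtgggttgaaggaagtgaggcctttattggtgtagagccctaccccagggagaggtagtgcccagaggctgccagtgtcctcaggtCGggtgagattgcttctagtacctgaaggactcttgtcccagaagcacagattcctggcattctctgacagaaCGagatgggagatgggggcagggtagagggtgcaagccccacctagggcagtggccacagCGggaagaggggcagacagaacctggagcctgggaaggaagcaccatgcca
Abca3, which was measured at like levels in all 3 tissues, holds 29 CG pairs in this window, against a median of 7 over all 32851 promoters of the table (quartiles 3 and 20). Nkx2-1 holds 12, Sftpb 8, Sftpa1 5, Ager 4 and Lamp3 0. The letters CTCAAG, the core bound by NKX2-1, or CTTGAG on the other strand stand 2 times in the Sftpb window and 1 time in the Sftpa1 window, and in 15.9% of all promoters. The letters TATAAA or TTTATA stand 30 bases before the start of Sftpa1, and in 13.6% of all promoters. These matches describe the sequence and do not show binding.

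Several libraries stood apart and touch the results below. Lung libraries held 284457 to 43417945 counts with 3.40% to 61.0% of reads on genes, heart libraries 8136031 to 33050750 counts and brain libraries 7226796 to 32891759 counts. Sequencing batches are not labelled, but the count files carry 4 patterns of names, called library series 1 to 4 here and used as a covariate. The library labelled 6 hr in series 1 had, in each tissue, far less Lcn2 and Saa3, acute-phase genes that were picked for this check after their values were seen, than the other 6 hr libraries. In lung these were 87.9 and 70.3 counts per 1000000 (CPM) in 6 hr replicate 4, which has only 284457 counts, against 545 to 1439 and 2655 to 14917 CPM in the other 3 libraries. In heart they were 51.3 and 1.05 CPM in 6 hr replicate 5, against 3363 to 7189 and 840 to 1299 CPM, and in brain 362 and 1.35 CPM in 6 hr replicate 6, against 5770 to 9418 and 1582 to 1691 CPM. Heart 72 hr replicate 1 had 13.2 CPM of Lcn2, within the 8.10 to 21.0 CPM of the 0 hr hearts. Its Saa3, 0.704 CPM, lay above their 0.174 to 0.395 CPM and below the 68.6 to 134 CPM of the other 72 hr hearts. Whether the labels of these libraries are right was not tested. Heart 0 hr replicate 2 held lung transcripts. Calls on members that turn on these libraries are given with and without them, while calls on other gene lists are given with all kept libraries only.

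At baseline in lung, Sftpc was the most abundant per length of the 9 members that could be measured, with a median of 4873 CPM per kilobase of exon over 4 libraries, followed by Scgb1a1 with 3500. The spread of the next ranks was wide: Sftpa1 had 305, Sftpd 207 and Ager 175 CPM per kilobase. Lamp3 (23.5), Abca3 (16.2), Nkx2-1 (14.9) and Napsa (6.24) were lower still. The ranges over libraries of Sftpc (1076 to 5765) and Scgb1a1 (1353 to 6331) overlapped, as did those of Sftpa1 (88.6 to 313), Sftpd (22.9 to 431) and Ager (53.7 to 225), and those of Lamp3 (12.1 to 36.6), Abca3 (7.37 to 24.0) and Nkx2-1 (9.42 to 33.8). In heart and brain only Abca3 reached a like level, with medians of 11.5 and 11.0 CPM per kilobase, and Napsa followed in brain with 1.82. All other members had baseline medians under 1 CPM per kilobase in both tissues.

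No member of the 9 that could be tested in lung passed the test at any single time point against 0 hr. Standard errors ran from 0.45 to 1.08 on the log2 scale, so this does not show that the members were unchanged. The counts were 0 of 9 at 6 hr, where 4.83% of all genes tested passed, 0 of 9 at 24 hr (0.375% of all genes), 0 of 9 at 48 hr (0.598%), 0 of 9 at 72 hr (0.193%) and 0 of 9 at 168 hr (0.0117%). At an unadjusted p under 0.05 the counts were 1, 0, 1, 0 and 1. Of all 17058 genes, 3960, 1022, 1674, 1225 and 605 reached it at these times. DESeq2 and limma-voom also called none at any of these times. Across the whole course, 1 of 9 members, Sftpd, passed the test of any change, against 6.30% of all genes. Between 6 hr and 168 hr, 1 of 9 fell, again Sftpd, against 5.39% of all genes. All adjusted p-values here are from edgeR's quasi-likelihood F test with library series as covariate and Benjamini-Hochberg adjustment over all genes tested in the comparison, and a log2 fold change stands with its standard error. In bulk samples such as these, fewer cells of a type and less RNA per cell cannot be told apart.

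**Figure D1:**
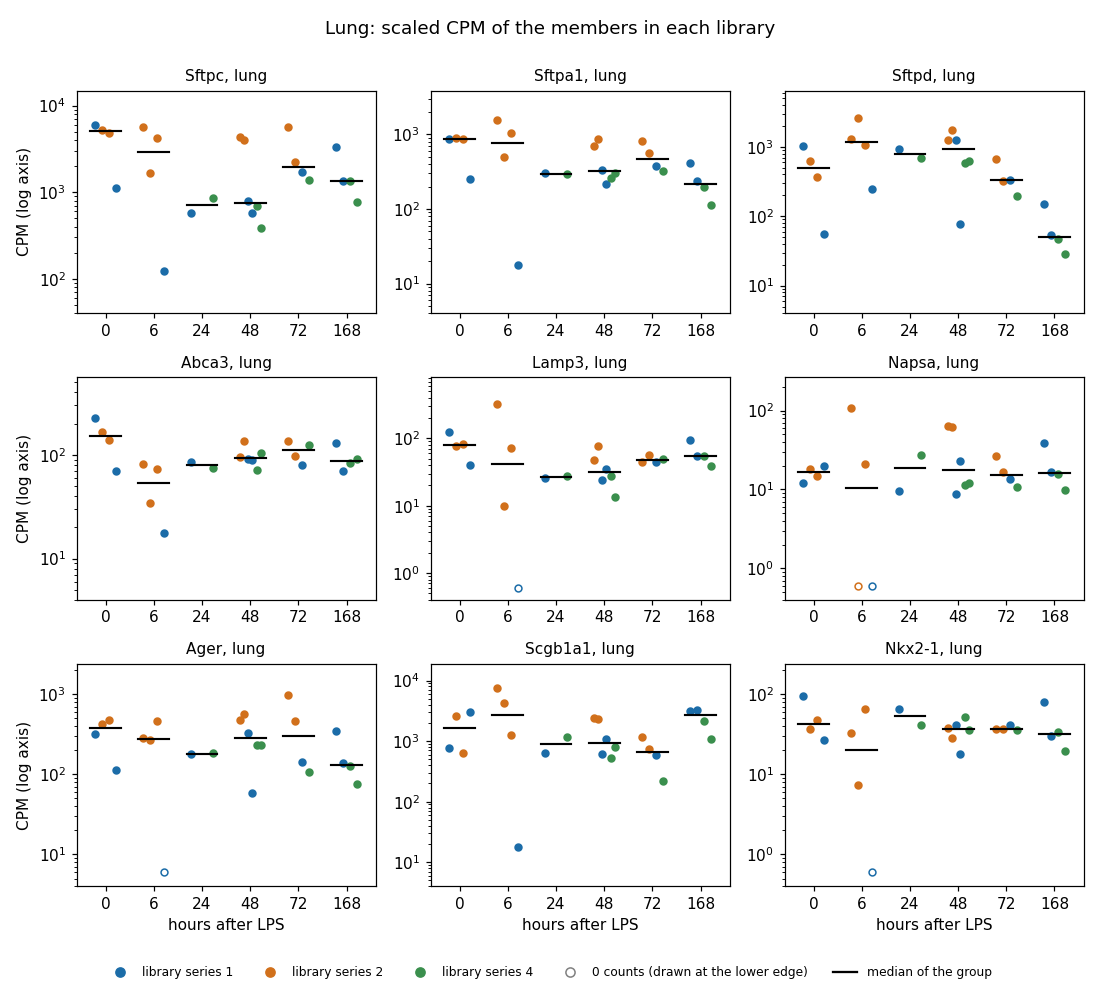
Levels of the members in each lung library (points coloured by library series, CPM scaled by TMM within lung, log axis) by time after LPS in hours. Lines are group medians, and open points are libraries with 0 counts, drawn at the lower edge. The group medians of Sftpd are highest at 6 to 48 hr and lowest at 168 hr, where its 4 libraries lie between 28.8 and 152 CPM. Its libraries overlap those of 0 hr at every time, and so do those of the other members except Sftpc and Lamp3 at 24 hr. That group holds 2 libraries against 4 at 0 hr, and the share of all genes without overlap was not computed.

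Sftpc, the hydrophobic surfactant protein made by alveolar type II cells, had 5960.5, 5257, 4821 and 1113 CPM in the 4 lung libraries at 0 hr (all levels from here on are CPM scaled by TMM within a tissue). At 6 hr it had 5674, 1653, 4203 and 123 CPM, and at 24 hr 582 and 845 CPM. Both 24 hr libraries lay below every 0 hr library, while the 6 hr libraries overlapped them except replicate 4. The share of all genes whose groups separate in this way was not computed, here or for the group ranges given below. At 48 hr the lowest of 6 libraries had 388, the median was 744 and the highest 4333 CPM. At 72 hr it had 5717, 2213, 1700.2 and 1387 CPM, and at 168 hr 3309, 1347, 1345 and 777 CPM. The 48 hr group split by library series, since its 2 highest libraries were those of series 2 and the other 4 had 388 to 796 CPM. The log2 fold change against 0 hr was -1.59 ± 0.82 at 6 hr (adjusted p = 0.241), -1.47 ± 1.01 at 24 hr (adjusted p = 1, and -0.30 without 0 hr replicate 1) and -1.53 ± 0.69 at 48 hr (p = 0.0336, adjusted p = 0.446). It was -0.76 ± 0.76 at 72 hr and -0.36 ± 0.75 at 168 hr, so the estimates lay below 0 throughout but none passed the test. Without 6 hr replicate 4 the 6 hr value was -0.93 ± 0.74 (adjusted p = 0.490).

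Sftpa1, the collectin surfactant protein A, had 879, 894, 864 and 253 CPM at 0 hr, 1554, 498, 1047 and 17.6 CPM at 6 hr, and 307 and 291 CPM at 24 hr. The 0 hr group consisted of 3 near-equal libraries and replicate 4, which was also the lowest of its group for Sftpc, Sftpd, Abca3, Lamp3, Ager and Nkx2-1. It was the highest for Napsa and Scgb1a1. Replicate 4 had 56.2% of reads on genes, against 18.8% to 28.6% in the other 0 hr lungs. Its lung EC genes summed to 7631 CPM (others 852 to 1382) and its pan-epithelial genes to 244 CPM (others 1138 to 1584). The part of this in its values was not tested. At 48 hr Sftpa1 ran from 216 over a median of 322 to 859 CPM, at 72 hr it had 817, 572, 379 and 325 CPM, and at 168 hr 415, 239, 199 and 112 CPM. All groups overlapped the 0 hr group, and the log2 fold changes lay between -0.82 ± 0.66 (168 hr) and -0.46 ± 0.65 (72 hr), none past the test.

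Sftpd, the collectin surfactant protein D, was the one member whose course passed the test in lung. It had 1041, 633, 366 and 55.4 CPM at 0 hr, 1297, 2585, 1072 and 246 CPM at 6 hr, and 917 and 684 CPM at 24 hr. The 3 libraries of series 2 at 6 hr all exceeded every 0 hr library. At 48 hr the lowest library had 76.6, the median was 939 and the highest 1742 CPM. At 72 hr it had 670, 321, 336 and 198 CPM, and at 168 hr 152, 53.1, 47.2 and 28.8 CPM. By scaled CPM every 168 hr library lay below every 6 hr library, and 3 of the 4 lay below the lowest 0 hr library. The lowest 6 hr value, 246 CPM in replicate 4, rests on 14 reads. Before scaling that library had 49.2 CPM, and the 168 hr libraries had 253, 80.1, 68.6 and 39.4 CPM. The separation of 6 hr replicate 4 from the 168 hr group thus depends on the scaling. The log2 fold change was 0.92 ± 0.82 at 6 hr (adjusted p = 0.521), 1.28 ± 0.93 at 24 hr (adjusted p = 1), 1.01 ± 0.73 at 48 hr (adjusted p = 0.726), -0.44 ± 0.77 at 72 hr and -2.35 ± 0.81 at 168 hr (p = 0.00672, adjusted p = 1). The 168 hr value ran from -3.01 to -0.77 with 1 library left out, the latter without 0 hr replicate 1. Over the course as a whole the adjusted p was 0.0482, and between 6 and 168 hr Sftpd fell by 3.27 ± 0.93 on the log2 scale, or 9.63-fold lower at 168 hr (adjusted p = 0.0337). The median over all genes in that comparison was 0.32, opposite in sign to this fall.

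Both calls on Sftpd lie close to the threshold and rest on single libraries. The call over the course was lost without any of 16 of the 24 lung libraries (adjusted p from 0.0551 to 0.165), and the call between 6 and 168 hr without any of 6 (0 hr replicates 1 and 3, 6 hr replicate 2, and 168 hr replicates 2, 4 and 5; adjusted p from 0.0540 to 0.0931). The call between 6 and 168 hr was also lost with the share of reads on genes as a covariate and with only libraries of at least 10% of reads on genes, and both calls were lost with the libraries of series 3 added back. Without 6 hr replicate 4 the adjusted p were 0.0298 and 0.0186, with a log2 fold change of -3.80 ± 0.93 between 6 and 168 hr. The libraries of 168 hr belong to series 1 and 4, and within series 1 Sftpd moved by -1.42 on the log2 scale from 0 hr to 168 hr (2 libraries each), while within series 2 it moved by 1.67 from 0 hr (2 libraries) to 6 hr (3 libraries). Within series 1 the 6 hr group is replicate 4 alone, with a difference of 0.03 from 0 hr.

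Sftpd was also set against Sftpc and Sftpa1 in the same library, a ratio of reads that does not depend on scaling between libraries. These ratios were chosen after the values had been seen and carry no test. Sftpd had 0.175, 0.120, 0.0759 and 0.0498 reads per Sftpc read at 0 hr, 0.229, 1.56, 0.255 and 2 at 6 hr, and 1.58 and 0.810 at 24 hr. The last 6 hr value rests on 14 and 7 reads, and every library at 6 and 24 hr lay above every 0 hr library. At 48 hr the ratio ran from 0.134 over a median of 0.641 to 1.61, at 72 hr it was 0.117, 0.145, 0.197 and 0.143, and at 168 hr 0.0460, 0.0394, 0.0351 and 0.0371. All 4 libraries at 168 hr lay below every 0 hr library, within a narrow range.

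**Figure D2:**
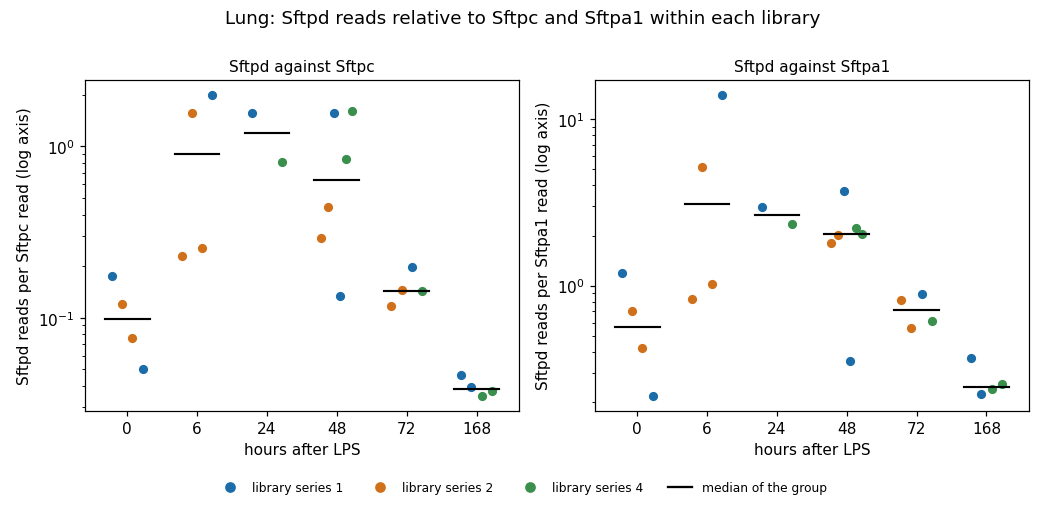
Sftpd reads per Sftpc read and per Sftpa1 read in each lung library (points coloured by library series, log axis) by time after LPS in hours, with lines at group medians. Sftpd per Sftpc is above every 0 hr library at 6 and 24 hr and below every 0 hr library at 168 hr, while Sftpd per Sftpa1 overlaps the 0 hr range at 168 hr.

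Against Sftpa1, its neighbour on the chromosome, Sftpd had 1.19, 0.708, 0.423 and 0.219 reads per read at 0 hr, 0.835, 5.19, 1.02 and 14 at 6 hr, and 2.99 and 2.35 at 24 hr. Only at 24 hr did every library of a group lie above all 0 hr libraries here. At 48 hr it ran from 0.354 over 2.03 to 3.71, at 72 hr it was 0.820, 0.560, 0.885 and 0.609, and at 168 hr 0.366, 0.222, 0.238 and 0.257. The 168 hr range lay within that of 0 hr.

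Abca3, the phospholipid transporter of lamellar bodies, had 225, 166, 138 and 69.1 CPM in lung at 0 hr and 81.8, 34.1, 73.4 and 17.6 CPM at 6 hr. Of the 6 hr libraries, 2 lay below every 0 hr library and the other two overlapped replicate 4 of 0 hr. It had 85.2 and 75.4 CPM at 24 hr, ran from 72.1 over a median of 93.3 to 136 CPM at 48 hr, and had 137, 97.5, 80.5 and 123 CPM at 72 hr and 129, 70.1, 83.8 and 90.2 CPM at 168 hr. The 6 hr log2 fold change was -1.55 ± 0.53, with p = 0.00634 but an adjusted p of 0.0807, where the median of all genes was -0.42. Without 6 hr replicate 3 it was -1.68 ± 0.51 (adjusted p = 0.0160), which passed, and without 6 hr replicate 4 it was -1.32 ± 0.52 (adjusted p = 0.146). At 24 to 168 hr the estimates lay between -0.73 ± 0.64 and -0.46 ± 0.50.

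Lamp3, the membrane protein of lamellar bodies and of mature dendritic cells, had 123, 76.1, 81.5 and 40.5 CPM at 0 hr, 326, 9.75, 72.8 and 0 CPM at 6 hr, and 25.9 and 28.0 CPM at 24 hr. Both 24 hr libraries lay below every 0 hr library, with a log2 fold change of -1.10 ± 0.91 that did not pass. The 48 hr libraries ran from 13.3 over 31.4 to 77.7 CPM (-1.06 ± 0.62, p = 0.0998), and those at 72 and 168 hr lay between 38.4 and 94.7 CPM. Napsa, the aspartic protease, was low in lung, with 12.0, 18.4, 14.8 and 19.8 CPM at 0 hr and 106, 0, 21.0 and 0 CPM at 6 hr. From 24 hr on its libraries lay between 8.79 and 64.4 CPM and overlapped those of 0 hr, and its log2 fold changes, from 0.03 to 1.04, did not pass at any time.

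Ager, the type I cell receptor, had 324, 425, 481 and 115 CPM at 0 hr and 286, 269, 466 and 0 CPM at 6 hr. The 0 belongs to replicate 4, in which no read at 284457 counts allows up to 10.5 CPM before scaling (3 counts). At 48 hr Ager ran from 57.8 over 281 to 575 CPM, and at 72 hr it had 967, 459, 141 and 107 CPM, the first 2 from series 2. On the log2 scale the difference from 0 hr was -1.09 ± 0.70 at 6 hr (adjusted p = 0.356) and between -0.02 and 0.27 afterwards, and without replicate 4 the 6 hr value was -0.60. Scgb1a1, the club cell secretoglobin, varied over more than the time points: it had 766, 2566, 644 and 3014 CPM at 0 hr, 7619, 4197, 1255 and 17.6 CPM at 6 hr, and 641 and 1166 CPM at 24 hr. At 48 hr it ran from 522 over 933 to 2437 CPM, at 72 hr it had 1155, 734, 599 and 223 CPM, and at 168 hr 3203, 3241, 2156 and 1065 CPM. Its log2 fold changes were 0.12 ± 0.93 at 6 hr, -1.57 ± 0.84 at 72 hr (p = 0.0702, adjusted p = 0.756) and 1.12 ± 0.85 at 168 hr, none past the test.

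Nkx2-1, the lung epithelial transcription factor, had 96.1, 37.2, 47.7 and 26.8 CPM at 0 hr and 33.0, 7.32, 65.0 and 0 CPM at 6 hr. From 24 hr on its libraries lay between 17.8 and 79.3 CPM, and its log2 fold changes ran from -0.62 at 6 hr to 0.07 at 24 hr, none past the test. Sftpb could not be followed: it had 4 counts over all 80 libraries, all of them in lung. It lies among 9 consecutive genes at chr6:72304610-72439558 that together hold 16 counts, with at most 5 in any gene, including the widely expressed Mat2a and Rnf181. The genes on either side hold 46620 (Atoh8) and 411 (Sh2d6) counts. The near absence of reads thus covers a block of genes and is no measurement of Sftpb; its cause was not tested.

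Across the 24 lung libraries, after library series means were removed, all pairs of measured members without Sftpd had positive correlations. Pearson's r of log2 CPM over their 28 pairs ran from 0.33 to 0.96 with a median of 0.75, and the 8 pairs with Sftpd ran from -0.16 to 0.30 with a median of -0.03. Much of this correlation came from 6 hr replicate 4: without it the 28 pairs ran from -0.35 to 0.75 with a median of 0.51, and the 8 pairs with Sftpd from -0.26 to 0.56 with a median of -0.03. Scgb1a1 then also stood apart, with r from -0.35 (Abca3) to 0.17 (Lamp3) over its pairs with members other than Sftpd. Sftpd then had 0.56 with Sftpa1 and 0.51 with Ager. These values carry no test, and the part of depth, scaling and any carried-over RNA in them was not tested. The 8 genes closest to Sftpc over the 24 libraries were Clec3b, Lrp2, Lamp3, Pax5, Cxcl15, Sfta2, Kcnk2 and Col27a1 (r from 0.83 to 0.87, and from 0.69 to 0.77 without 6 hr replicate 4). Those closest to Ager were Mical1, Krt7, Nub1, Nectin2, Cep250, Lgmn, Akt2 and Wwc1 (r from 0.97 to 0.98, and from 0.65 to 0.86 without 6 hr replicate 4). Those closest to Scgb1a1 were Mgst1, Igkc, Ces1d, Abhd16a, Mbnl2, Ablim3, Dag1 and Tor4a (r from 0.90 to 0.94, and from 0.76 to 0.86 without 6 hr replicate 4). All 3 lists were ranked with that library included.

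Other lists place the members in the lung libraries. Of 16 other alveolar type II genes, none passed at any single time in lung (1, 0, 3, 2 and 1 at an unadjusted p under 0.05). That threshold was reached by 3960, 1022, 1674, 1225 and 605 of all 17058 genes. The median change at 6 hr, on the log2 scale, was -0.29 for this list, -0.42 over all genes and -0.50 over the members. Of 19 tested genes of surfactant lipid supply, processing, regulation and clearance, 1 rose at 6 hr, the fatty acid elongase Elovl6 (2.27 ± 0.63, adjusted p = 0.0330), and none passed later. Of 11 other type I genes, Akap5 fell at 6 hr (-2.84 ± 0.80, adjusted p = 0.0338), and of 14 airway genes, the ciliated cell gene Tppp3 fell at 6 hr (-2.63 ± 0.60, adjusted p = 0.0106) and at 48 hr. Of all genes tested, 4.83% passed at 6 hr and 0.598% at 48 hr, so 1 gene of such a list at 6 hr is near the share of all genes. None of 14 pan-epithelial genes passed at any single time, and their summed level ran from 244 to 1584 CPM at 0 hr, from 105 to 1278 CPM at 6 hr and from 138 to 615 CPM at 168 hr. Of 16 EC genes, 3 fell at 6 hr, led by Ramp2 (-3.87 ± 0.79, adjusted p = 0.00516) and Tek (-3.48 ± 0.89, adjusted p = 0.0213). Of 6 genes of lung ECs, Hpgd and Tmem100 fell, and that list summed to 852 to 7631 CPM at 0 hr, 158 to 531 CPM at 6 hr and 2171 to 7434 CPM at 168 hr. Neutrophil genes rose, with 6, 5, 6, 2 and 0 of 10 past the test at 6, 24, 48, 72 and 168 hr. The shares of all genes at these times were 4.83%, 0.375%, 0.598%, 0.193% and 0.0117%. None of 10 genes of lung macrophages passed at any single time. These levels moved in the same libraries as the members, whose scaled CPM depend on them, and their part in the members' values was not tested.

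In heart, 4 of the 10 members had enough reads to be tested, Abca3, Napsa, Ager and Scgb1a1, and 3 of the 4 passed the test of any change over the course, against 56.0% of all genes. Abca3 fell at 6 hr, and Napsa rose at 24 and 48 hr. The counts were 1 of 4 at 6 hr (42.8% of all genes), 1 of 4 at 24 hr (16.2%), 1 of 4 at 48 hr (4.19%), 0 of 4 at 72 hr (0.275%) and 0 of 4 at 168 hr (0% of all genes). At 72 and 168 hr, 1 member each had an unadjusted p under 0.05, as did 943 and 680 of all 16024 genes. DESeq2 and limma-voom called none at these times.

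**Figure D3:**
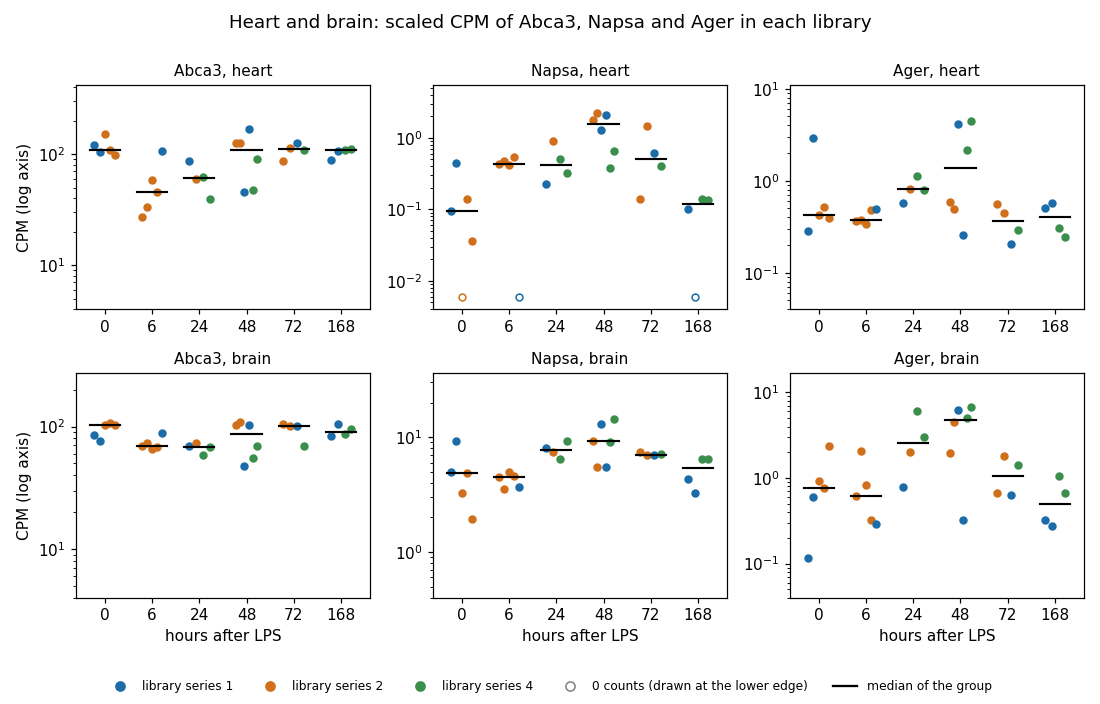
Levels of Abca3, Napsa and Ager in each heart and brain library (points coloured by library series, CPM scaled by TMM within a tissue, log axis) by time after LPS in hours. Lines are group medians, and open points are libraries with 0 counts. In heart at 6 hr, Abca3 lies between 27.2 and 58.1 CPM except in the series 1 library (106 CPM), and Napsa at 48 hr (0.379 to 2.20 CPM) is high against 0 hr (0 to 0.440 CPM).

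Abca3 had 121, 105, 152, 108 and 98.9 CPM in the hearts at 0 hr, and 27.2, 33.4, 58.1, 45.2 and 106 CPM at 6 hr. The last of these is the library labelled 6 hr in series 1, with the low Lcn2 and Saa3, and the other 4 lay below every 0 hr library. At 24 hr Abca3 had 87.5, 59.4, 62.4 and 39.4 CPM, again all below 0 hr, at 48 hr it ran from 46.1 over 108 to 169 CPM, and at 72 and 168 hr it lay between 86.8 and 126 CPM. Its log2 fold change was -1.12 ± 0.32 at 6 hr, 2.17-fold lower (adjusted p = 0.00791), and -1.52 ± 0.31 (adjusted p = 0.000218) without the series 1 library. It was -0.84 ± 0.36 at 24 hr (adjusted p = 0.103), -0.17 at 48 hr, -0.04 at 72 hr and -0.11 at 168 hr. Within series 2 the difference was -1.58 at 6 hr (4 against 3 libraries), and within series 1, where 6 hr is the low-Lcn2 library alone, it was -0.09. The 6 hr call was kept without any 1 of the 28 libraries, but it was lost (-0.60, adjusted p = 0.338) when the share of reads on genes was added as a covariate. At 6 hr 12 of 16 EC genes also fell in heart, where 42.8% of all genes passed in either direction.

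Napsa was scarce in heart, with 1, 5, 0, 4 and 1 reads at 0 hr, or 0.0939, 0.440, 0, 0.139 and 0.0359 CPM. It had 0.425, 0.477, 0.411, 0.533 and 0 CPM at 6 hr, the 0 in the series 1 library, and 0.228, 0.903, 0.506 and 0.318 CPM at 24 hr. At 48 hr it ran from 0.379 over 1.54 to 2.20 CPM, and 5 of the 6 libraries lay above every 0 hr library. At 72 hr it had 0.141, 1.47, 0.611 and 0.407 CPM, and at 168 hr 0.101, 0, 0.139 and 0.136 CPM, back within the 0 hr range. Against 0 hr its log2 fold change was 1.52 ± 0.82 at 6 hr (adjusted p = 0.135), 2.52 ± 0.87 at 24 hr, 5.73-fold higher (adjusted p = 0.0484), 3.73 ± 0.76 at 48 hr, 13.2-fold higher (adjusted p = 0.00532), and 2.62 ± 0.82 at 72 hr (adjusted p = 0.253). The 48 hr call was kept without any 1 of the 28 libraries, while the 24 hr call was lost without any of 20 of them (adjusted p from 0.0511 to 0.184) and without the series covariate, with the share of reads on genes as one or with the replicate number as a block. Within series 2 the difference at 48 hr was 3.87 (2 against 3 libraries) and within series 1 it was 2.43 (2 against 2).

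Leaving out libraries that stood apart moved Napsa at other times in heart. Without the series 1 library at 6 hr the 6 hr rise passed (1.91 ± 0.77, adjusted p = 0.0374, with 58.4% of all genes called), and without 72 hr replicate 1 the 72 hr rise passed (3.05 ± 0.79, adjusted p = 0.0494, with 1.52% of all genes called). Without 0 hr replicate 2, which held lung transcripts and the most Napsa at 0 hr, the values were 2.41 ± 0.83 at 6 hr (adjusted p = 0.0241) and 4.79 ± 0.81 at 48 hr (adjusted p = 0.00294). Neutrophil genes rose in the same hearts, 7 of 8 at 48 hr (4.19% of all genes passed), with a summed level of 0.993 to 1.67 CPM at 0 hr and 14.3 to 51.6 CPM at 48 hr. The list of lung macrophages, which includes genes of other macrophages, had 2 of 5 higher at 48 hr and summed to 7.29 to 20.4 CPM at 0 hr and 10.2 to 51.8 CPM at 48 hr. Their part in the rise of Napsa was not tested.

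Ager in heart had 0.282, 2.91, 0.420, 0.521 and 0.395 CPM at 0 hr and 0.342 to 0.491 CPM at 6 hr. It had 0.570, 0.817, 1.12 and 0.794 CPM at 24 hr, and at 48 hr it ran from 0.257 over 1.36 to 4.41 CPM, with 3 libraries at 2.13 CPM or more and 3 at 0.588 CPM or less. Over the course the adjusted p was 0.0256, but no single time passed, with 0.90 ± 0.62 at 48 hr (adjusted p = 0.415) and -1.61 ± 0.75 at 168 hr (p = 0.0416, adjusted p = 0.985). The 2.91 CPM belongs to 0 hr replicate 2, and without it the 48 hr value was 1.83 ± 0.66 (adjusted p = 0.164), the 168 hr value -0.57 ± 0.78 (adjusted p = 1) and the adjusted p over the course 0.0110. Of the 161 Scgb1a1 reads in the 28 hearts, 85 came from the same library, with 7.48 CPM against at most 0.599 CPM in any other heart. Its log2 fold change at 6 hr was -3.08 ± 1.52 with that library and 1.91 without it (adjusted p = 0.102 and 0.244), and at 24 hr it was 4.02 ± 1.18 without it (adjusted p = 0.0367). The direction thus turned with 1 library, on a few reads.

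**Figure D4:**
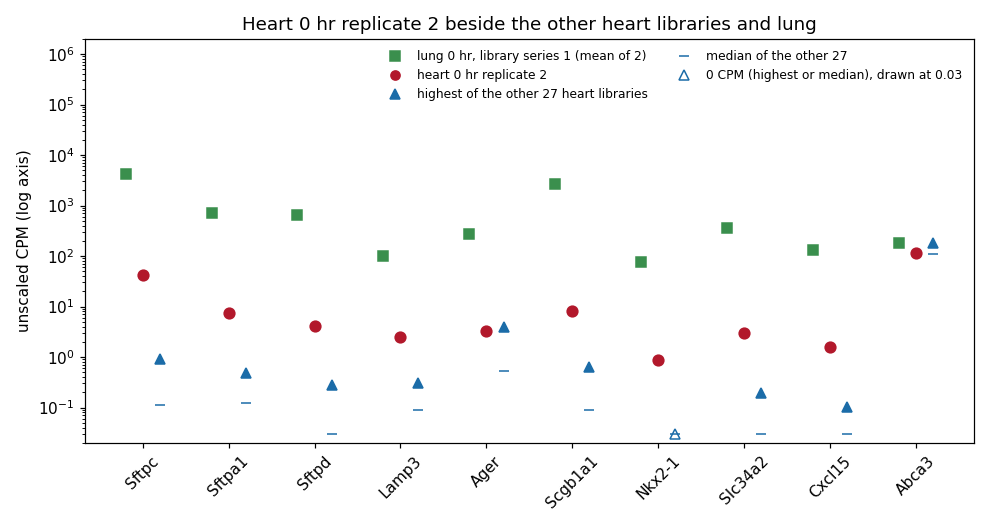
Unscaled CPM (log axis, 0 drawn at 0.03) of lung transcripts in heart 0 hr replicate 2, in the other 27 hearts (median and highest) and in the 2 lungs at 0 hr of the same library series (mean). Sftpc is at 42.8 CPM in replicate 2, against at most 0.897 CPM in the other hearts and a mean of 4288 CPM in the lungs.

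Heart 0 hr replicate 2 held Sftpc at 42.8 CPM before scaling (438 reads), where the other 27 hearts had a median of 0.113 and at most 0.897 CPM. This is 0.998% of the mean of the 2 lungs at 0 hr of the same series. The same share was 1.08% for Sftpa1, 0.650% for Sftpd, 1.18% for Ager, 1.16% for Nkx2-1, 0.312% for Scgb1a1 and 2.41% for Lamp3. The type II genes Slc34a2 and Cxcl15, which are no members, had shares of 0.834% and 1.20%, while the airway gene Scgb3a2, with 1 read, had 0.0515%. Both Nkx2-1 and Sftpd had a median of 0 in the other hearts. Abca3, at 117 CPM, lay within the range of the other hearts, which had a median of 111 and at most 179 CPM. The library was kept, since its label gives it as heart, and it lowers or reverses the members' changes in heart as given above.

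In brain, 5 of the 10 members were tested, Abca3, Napsa, Ager, Sftpc and Nkx2-1, and 2 passed over the course, Ager and Napsa, against 35.4% of all genes. The count over the course was 1 with limma-voom or with the replicate number as a block, and 0 with the share of reads on genes as a covariate. With 1 library left out it ran from 1 (without 48 hr replicate 1 or 7, or 168 hr replicate 2, 4 or 5) to 3 (without 6 hr replicate 6, 48 hr replicate 4 or 168 hr replicate 1). At single times only Ager passed, with a rise at 48 hr. The counts were 0 of 5 at 6 hr (6.44% of all genes), 0 of 5 at 24 hr (11.2%), 1 of 5 at 48 hr (14.2%), 0 of 5 at 72 hr (3.53%) and 0 of 5 at 168 hr (0%). At an unadjusted p under 0.05 the counts at 6, 24, 72 and 168 hr were 1, 0, 0 and 0. Of all 19234 genes, 3483, 5279, 3050 and 828 reached it. DESeq2 and limma-voom called none at these times.

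Ager had 0.118, 0.605, 0.924, 0.773 and 2.38 CPM in the brains at 0 hr, 0.621, 2.07, 0.833, 0.322 and 0.289 CPM at 6 hr, and 0.791, 2.04, 6.13 and 3.03 CPM at 24 hr. At 48 hr it ran from 0.319 over 4.74 to 6.72 CPM, with 4 of 6 libraries above every 0 hr library. It had 0.676, 1.83, 0.632 and 1.41 CPM at 72 hr and 0.325, 0.275, 1.04 and 0.662 CPM at 168 hr, within the 0 hr range. The log2 fold change was 1.08 ± 0.68 at 24 hr (adjusted p = 0.313) and 1.91 ± 0.60 at 48 hr, 3.75-fold higher (adjusted p = 0.0343), and over the course the adjusted p was 0.00343. The 48 hr call was lost without any of 5 libraries (0 hr replicates 1 to 4 and 48 hr replicate 3; adjusted p from 0.0689 to 0.131), with limma-voom (adjusted p = 0.134), with the replicate number as a block (adjusted p = 0.126) and with the share of reads on genes as a covariate (1.32, adjusted p = 0.175). The difference at 48 hr was 2.06 within series 1 (2 against 2 libraries) and 1.24 within series 2 (2 against 3).

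Napsa, measured in brain at several CPM, had 4.94, 9.28, 3.29, 4.84 and 1.95 CPM at 0 hr and 3.55 to 5.00 CPM at 6 hr. It had 8.03, 7.43, 6.49 and 9.28 CPM at 24 hr, ran from 5.46 over 9.19 to 14.5 CPM at 48 hr, and had 7.40, 6.97, 6.95 and 7.10 CPM at 72 hr and 3.30 to 6.49 CPM at 168 hr. Every library from 24 to 72 hr lay above the 0 hr libraries other than replicate 2. The log2 fold change at 48 hr was 0.84 ± 0.30 (adjusted p = 0.0560), and 4 other settings took it past the threshold: RLE scaling, DESeq2, limma-voom and no library series covariate. Over the course the adjusted p was 0.0330. In these brains 5 of 9 neutrophil genes and 3 of 5 genes of the macrophage list rose at 48 hr, where 14.2% of all genes passed. The macrophage list summed to 3.06 to 22.3 CPM at 0 hr and 33.9 to 78.0 CPM at 48 hr. The part of these neutrophil and macrophage genes in the levels of Ager and Napsa was not tested.

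Abca3 in brain had 84.6, 76.7, 103, 106 and 103 CPM at 0 hr and 69.7, 72.9, 65.1, 67.8 and 89.1 CPM at 6 hr, the last in the library labelled 6 hr in series 1. The other 4 lay below every 0 hr library. At 24 hr it had 68.9, 73.6, 58.3 and 68.4 CPM, all below 0 hr, and at 48 hr it ran from 47.4 over 86.1 to 109 CPM. The log2 fold change at 6 hr was -0.40 ± 0.17 (p = 0.0265, adjusted p = 0.190), and without the series 1 library Abca3 fell by 0.58 ± 0.17 on the log2 scale (adjusted p = 0.0216, with 14.3% of all genes called). Sftpc in brain was at trace level, with 0.353, 0.101, 0.763, 1.06 and 0.914 CPM at 0 hr and at most 2.04 CPM at 6 hr, and did not pass (1.00 ± 0.59 at 6 hr, adjusted p = 0.407). Nkx2-1 had 0.118, 0.202, 1.25, 1.59 and 1.39 CPM at 0 hr, with the last 3 from series 2, and did not pass either (1.23 ± 0.61 at 168 hr, adjusted p = 0.903). Sftpa1, too low to be tested in brain, had 0.226, 0.122, 0.401 and 0.747 CPM at 24 hr, all above the 0 hr libraries.

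**Figure D5:**
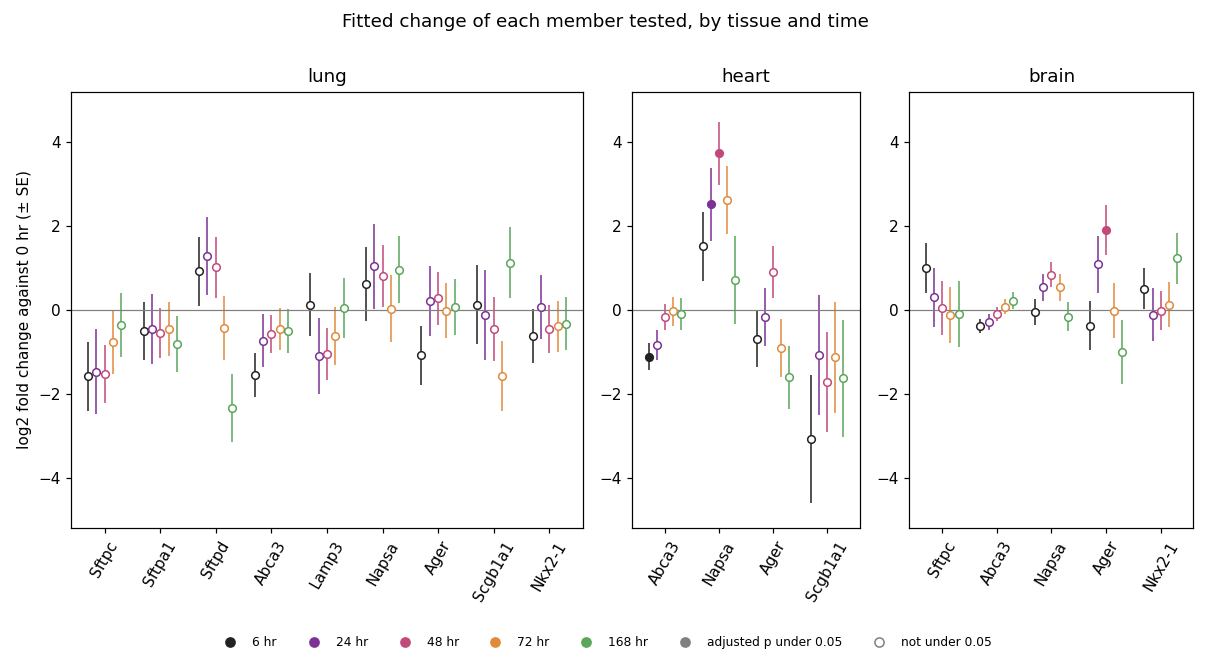
Log2 fold change of each tested member against 0 hr (vertical axis, bars are standard errors), with members along the horizontal axis and colours for the time after LPS, in panels for lung, heart and brain, and with filled points for an adjusted p under 0.05. Filled points stand for Abca3 at 6 hr and Napsa at 24 and 48 hr in heart and for Ager at 48 hr in brain, and none stands in lung.

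Whether the lung response differed from the mean of the brain and heart responses was tested in 1 fit of all 3 tissues. Of 9 members, 1 passed at 6 hr (19.1% of all genes), and 0 at 24 hr (2.62%), 48 hr (2.27%), 72 hr (0.545%) and 168 hr (0.414%). At an unadjusted p under 0.05 the counts from 24 hr on were 1, 4, 1 and 1. Of all 22007 genes, 3159, 3269, 2926 and 3096 reached it at these times. DESeq2 and limma-voom called none. The member at 6 hr was Scgb1a1, with a difference of 3.94 ± 1.23 on the log2 scale (adjusted p = 0.0184). It was lost without heart 0 hr replicate 2 (0.49 ± 2.93, adjusted p = 1), without lung 0 hr replicate 3 (3.49, adjusted p = 0.0542) and without lung 6 hr replicate 1 (2.84, adjusted p = 0.109). Without heart 0 hr replicate 2, Sftpa1 passed at 24 hr (-3.34 ± 0.96, adjusted p = 0.0418) and at 48 hr (-2.76 ± 0.80, adjusted p = 0.0482), on trace levels in heart and brain.

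Abca3, lower at 6 hr in all 3 tissues by estimate, had a difference between lung and the other tissues of -0.38 ± 0.40 at 6 hr (adjusted p = 0.582). Neither Napsa (-1.48 ± 0.73, adjusted p = 0.327) nor Ager (-1.67 ± 0.75, adjusted p = 0.259) passed at 48 hr. That test sets lung against the mean of brain and heart. The rise of Napsa in heart alone and that of Ager in brain alone were not tested against lung, where Napsa had 0.80 and Ager 0.27 at that time.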

How the data were processed

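RNA bound to HA-tagged ribosomes was sequenced from lung, heart and brain. The authors used STAR 2.4.2 for alignment to mm10 and HTSeq 0.6.1 for counting per gene, and deposited raw counts for each sequencing run; the annotation release is not given in the sources used here. The 217 runs were summed to 98 libraries, grouped by the tissue and time labels, and 18 libraries under 3% of reads on genes, all of library series 3, were left out. Positions are from GENCODE M21, which holds 52403 of the 52550 gene IDs.

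Counts were tested per tissue in R 4.3.3 with edgeR 4.0.16 (filterByExpr, TMM, quasi-likelihood F test, library series as covariate, two-sided) at an adjusted p threshold of 0.05, with 1 fit of all tissues for differences between responses. Standard errors were derived from the fold change and its F statistic. Levels are TMM-scaled CPM, and log2 CPM used a prior count of 2. The fits were first tested on simulated data. Intervals and the floor of 3 counts cover counting error only. No 2 libraries of the same tissue and time agreed within sampling noise (smallest chi-square per degree of freedom 14.1). Libraries of different times or tissues were not compared in this way.

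The members and gene lists were chosen with earlier results of these data known. All 10 members are named, at most 4 genes of another list (those with the largest change past the threshold in lung), and the 8 genes of mean log2 CPM of at least 3 most like Sftpc, Ager and Scgb1a1. Alternatives were RLE scaling, no filter, DESeq2 1.42.0, limma-voom (limma 3.58.1), no series covariate, the replicate number as a block, the share of reads on genes as a covariate, other minimums on libraries, and each library left out. Left-out libraries of series 3 were used only for the fits on all libraries and for their own values.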

Additional observations from a re-analysis of the deposited data

Results flagged for a closer look

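In 11 of 89 groups of 4 to 10 libraries, the highest or lowest library stood far from the rest by Dixon's test at its 95% limit, which chance gives in about 1 of 20 groups.

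Of the 11, 5 belong to heart 0 hr replicate 2. It had 38.6 CPM of Sftpc where the other 4 hearts had 0.0939 to 0.305, 6.78 CPM of Sftpa1 (others 0 to 0.153), 3.79 CPM of Sftpd (others 0 to 0.104), 2.91 CPM of Ager (others 0.282 to 0.521) and 7.48 CPM of Scgb1a1 (others 0 to 0.0939).

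Lung 0 hr replicate 4 was low in Sftpc, with 1113 CPM where the other 3 libraries had 4821 to 5960.5, and in Sftpa1, with 253 CPM where they had 864 to 894. Sftpd was at 76.6 CPM in lung 48 hr replicate 4, against 582 to 1742 CPM in the other 5 libraries. Ager was at 0 in lung 6 hr replicate 4, against 269 to 466 CPM. Abca3 was at 68.9 CPM in brain 72 hr replicate 5, against 102 to 106 CPM, and at 88.3 CPM in heart 168 hr replicate 1, against 107 to 111 CPM. No cause of these values was tested.

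The response of Scgb1a1 at 6 hr differed between lung and the mean of brain and heart by 3.94 on the log2 scale in the test of that difference, and by 0.49 without heart 0 hr replicate 2.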

How the results depend on the processing

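Of 245 counts of members called under the other settings, 212 stayed within 1.5 times the value reported, and of 353 values of single members 324 kept their direction and side of the threshold. Low counts limit heart and brain, where 6 and 5 members were too scarce to test. With no filter on low counts the members called were 2 over the lung course, 4 at 6 hr, 3 at 24 hr, 2 at 48 hr, 1 at 72 hr and 6 over the course in heart, and 2, 2, 1 and 1 for the lung response against the others at 6, 48, 72 and 168 hr. DESeq2 gave 2 over the lung course, 2 in heart at 6 hr and 2 in brain at 48 hr, RLE scaling 2 in brain at 48 hr, and no series covariate 2 in heart at 6 hr and 2 in brain at 48 hr. limma-voom gave 1 over the brain course and 0 for the lung response at 6 hr. With the share of reads on genes as a covariate the counts were 0 in lung between 6 and 168 hr, in heart at 6 and 24 hr, in brain at 48 hr and over its course, and for the lung response at 6 hr. With all libraries they were 0 over the lung course, 0 between 6 and 168 hr, and 2 in brain at 48 hr. With libraries of at least 10% of reads on genes they were 0 between 6 and 168 hr in lung and 0 for the lung response at 6 hr. The shares of all genes called under these settings are not given here, and the cause of these moves was not tested.

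Same-numbered libraries of a tissue at different times were by median not more alike than other pairs. Their median correlation was -0.03 in lung, -0.05 in heart and -0.03 in brain, against 0.02, 0.01 and 0.02 in other pairs. Whether libraries of different tissues came from the same mouse cannot be seen from this, and the fit of all 3 tissues treats them as independent. With the replicate number as a block the counts were 0 in heart at 24 hr, 0 in brain at 48 hr, 1 over the brain course and 0 for the lung response at 6 hr, and Sftpd in lung at 24 hr reversed to -0.69. Sftpd at 72 hr reversed to 0.12 with limma-voom. With all libraries, 3 lung values turned above 0, Sftpc to 0.40 at 72 hr and 0.020 at 168 hr and Abca3 to 0.93 at 72 hr. None of these values was called.

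Leaving out each library in turn, the members called ran from 0 to 1 in lung at 6 hr, over its course and between 6 and 168 hr. They ran from 1 to 2, 0 to 2 and 0 to 1 in heart at 6, 24 and 72 hr and from 2 to 4 over its course, and from 0 to 1 and 0 to 2 in brain at 6 and 48 hr and from 1 to 3 over its course. For the lung response they ran from 0 to 1 at 6, 24 and 48 hr, over 11 libraries left out (lung at 0, 6 and 24 hr and heart 0 hr replicate 2); other libraries were not run there. In lung, Sftpc ran from -1.05 to 0.29 at 72 hr and from -0.93 to 0.87 at 168 hr, Sftpd from -0.82 to 0.84 at 72 hr and Abca3 from -0.81 to 0.036 at 168 hr, each above 0 only without 0 hr replicate 1.

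The settings on 10% of reads on genes and without series 1 at 6 hr or heart 0 hr replicate 2 for the lung response were chosen after seeing the data.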

Other observations

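The 6 lung libraries left out for few reads on genes held 0 to 54 reads of Sftpc each, or 0 to 53.6 CPM before scaling, with a median of 10.3 CPM, far below the kept lung libraries other than 6 hr replicate 4 (24.6 CPM before scaling).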
